A study of Mus musculus with 116 samples.

Results

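Imprinted genes are transcribed mainly from the copy inherited from 1 parent, and 10 of them that lie outside chromosome 7 were followed here through the developing mouse neocortex: Dlk1, Meg3, Rian, Mest, Peg10, Nnat, Plagl1, Grb10, Igf2r and Impact. They were chosen by name from the 53379 genes in the deposited count tables. All 10 passed the filter on low counts at each of the 4 ages, Dlk1 at E16.5 only through the libraries of the group in which it was high. The study used mosaic analysis with double markers (MADM) on chromosome 7, in which Cre recombinase driven by Emx1, a gene of the dorsal telencephalon, joins split fluorescent reporters and labels sparse cells of the cortical lineage green, red or yellow. In control-MADM animals every cell was Eed+/+. In Eed-MADM animals the green cells were Eed-/-, the yellow cells Eed+/- and the red cells Eed+/+, within unlabelled tissue that was heterozygous for Eed, so the deletion was sparse. In cKO-Eed-MADM animals Emx1-Cre removed Eed from the whole cortical projection neuron lineage, and cells of all 3 colours were Eed-/-. The labels give strain CD1, whereas the paper's methods report a mixed genetic background, of which CD1 was only a part. The 4 ages were E12.5, E13.5, E16.5 (embryonic days) and P0 (the day of birth). Every group carried Emx1-Cre and the MADM cassettes of chromosome 7. In every paradigm green cells also carried 2 paternal copies of chromosome 7 and red cells 2 maternal copies, whereas the members lie on other chromosomes. Each library pooled the sorted cells of 2 or 3 animals, so p-values measure the spread between pools.

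The members fall into loci with different rules of parental expression. Dlk1, a transmembrane protein related to the Notch ligands, is expressed from the paternal copy of a domain on chromosome 12, whereas the long noncoding RNAs Meg3 and Rian are transcribed from the maternal copy of the same domain, and Rian is a host of small nucleolar RNAs. Mest, a protein with a hydrolase fold, Peg10, derived from a retrotransposon, Nnat, a small membrane proteolipid whose gene lies within an intron of Blcap, Plagl1, a zinc finger transcription factor, and Impact, an inhibitor of the kinase GCN2, are paternally expressed. Grb10, an adaptor that restrains insulin and growth factor signalling, is maternally expressed in most tissues and paternally in neurons. Igf2r, the receptor that clears IGF2, is maternally expressed in most tissues and from both copies in neurons. Eed is a core subunit of Polycomb repressive complex 2 (PRC2), which methylates lysine 27 of histone H3, and PRC2 is known to take part in the silencing of some imprinted alleles. The read counts do not separate the parental copies, so each value below is the sum of both.

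The members lie on 7 chromosomes of GRCm38. Dlk1 spans chr12:109452823-109463336, Meg3 chr12:109541001-109571726 and Rian chr12:109603940-109661716, all on the plus strand. Mest lies at chr6:30723547-30748465, Peg10 at chr6:4747306-4760517, Nnat at chr2:157560078-157562522 and Plagl1 at chr10:13060504-13131694, on the plus strand. Grb10 at chr11:11930508-12038683 and Igf2r at chr17:12682406-12769664 are on the minus strand. The libraries do not keep strand, so reads from exons that overlap a gene on the other strand cannot be assigned to either: 23.1% of the exonic bases of Mest are shared with other genes, mostly its antisense neighbour Copg2, against 8.3% for Meg3, 4.8% for Nnat and 3.4% for Rian.

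Sequences at the start sites are shown for the 3 members of chromosome 12 that carry the main result and for Mest, which was called at both later ages. Each window is 300 bases of RefSeq sequence in the GRCm38.p6 build, written 5′ to 3′, with 250 bases before the annotated start and 50 bases after it. Capitals mark each match to TGCCGC on either strand, the core of the methylated hexamer that ZFP57 binds, a zinc finger protein that keeps imprints.
Dlk1, chr12:109452573-109452872, plus strand: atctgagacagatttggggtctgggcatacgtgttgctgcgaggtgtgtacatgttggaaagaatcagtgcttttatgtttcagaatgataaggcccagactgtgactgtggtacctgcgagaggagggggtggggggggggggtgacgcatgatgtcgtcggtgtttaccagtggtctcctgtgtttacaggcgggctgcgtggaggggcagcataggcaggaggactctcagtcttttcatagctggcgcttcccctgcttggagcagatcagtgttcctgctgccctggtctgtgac
Meg3, chr12:109540746-109541045, plus strand: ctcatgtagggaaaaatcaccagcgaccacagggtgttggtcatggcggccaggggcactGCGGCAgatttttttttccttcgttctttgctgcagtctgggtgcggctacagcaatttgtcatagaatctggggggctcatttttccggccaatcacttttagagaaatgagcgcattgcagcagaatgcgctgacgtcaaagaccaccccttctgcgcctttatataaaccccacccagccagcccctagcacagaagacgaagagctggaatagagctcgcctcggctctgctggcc
Rian, chr12:109603695-109603994, plus strand: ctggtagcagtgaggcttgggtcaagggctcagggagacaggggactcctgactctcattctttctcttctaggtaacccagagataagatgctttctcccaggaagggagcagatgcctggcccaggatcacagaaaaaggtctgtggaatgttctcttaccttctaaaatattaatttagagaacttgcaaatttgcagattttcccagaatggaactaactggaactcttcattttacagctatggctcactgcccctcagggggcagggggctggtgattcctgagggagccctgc
Mest, chr6:30737800-30738099, plus strand: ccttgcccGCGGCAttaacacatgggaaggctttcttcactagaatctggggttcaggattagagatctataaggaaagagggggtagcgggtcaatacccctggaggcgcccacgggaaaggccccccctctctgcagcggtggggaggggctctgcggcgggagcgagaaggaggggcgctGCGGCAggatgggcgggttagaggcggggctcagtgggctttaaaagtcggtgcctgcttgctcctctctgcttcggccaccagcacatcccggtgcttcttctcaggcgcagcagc
Of the 2 Meg3 and 3 Mest windows of the table, those printed have the most CpG dinucleotides. The other Meg3 window held 1 CpG and no match, and the other Mest windows 8 CpG with no match and 17 with 2. The printed Meg3 window held 13 CpG and 1 match, and that of Mest 17 CpG and 2 matches. Dlk1 had 9 CpG and Rian had 0, with no match in either window. Over all 32817 windows of the table the median was 7 CpG, and 11.6% held the hexamer at least once. Only 5.4% of windows had as few CpG as that of Rian, whose transcript follows Meg3 on the same strand. Of the 10 members, 8 had 1 or more windows. The letters are a description of these windows only.

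Of the 116 deposited libraries, 92 had at least 1000000 uniquely aligned reads making up at least 60% of all reads and were used, 55 from green, 20 from yellow and 17 from red cells. Reads counted on genes ranged from 865832 to 2359317 at E12.5 and from 2784557 to 7249098 at the later ages. Levels are counts per 1000000 reads on genes (CPM), with library sizes scaled by the trimmed mean of M values (TMM) over all used libraries. The targeted gene Eed lay at 8.64 to 16.1 CPM in the 4 green cKO-Eed-MADM libraries of P0, at 11.2 to 19.5 in the 9 of Eed-MADM and at 25.7 to 33.9 in the 5 of control-MADM (log2 differences from control of -1.32 and -0.93, both called). At E16.5 it was lower in both mutants, and the call was made for cKO-Eed-MADM (-1.10, adjusted p 0.0314) but not for Eed-MADM (-1.22, adjusted p 0.0889). In 1 of the 2 red libraries labelled cKO-Eed-MADM P0, replicate 1, Eed stood at 33.3 CPM against 5.51 in the other, and that library detected the fewest genes (13133). The yellow control-MADM P0 replicate 2 library had 0 CPM of Grb10, Plagl1 and Peg10. Results for the members from these 2 libraries are given with and without them. The 6 neuronal markers summed to 1431 to 9435 CPM in the green libraries of E16.5 and P0. E12.5 cells were collected in lysis buffer and later cells in RNA extraction buffer, so the collection and the age E12.5 cannot be told apart.

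In control-MADM green cells the members covered a wide range of levels, which are compared between genes per kilobase of exon. Nnat was first at every age and ranged from a mean of 2508 CPM per kilobase at E13.5 to 1083 at P0, and no other member reached its lowest library. Mest and Grb10 followed at E12.5 with means of 62.9 and 47.2 CPM per kilobase, and their ranges overlapped. At P0 the order after Nnat was Mest (34.5), Meg3 (11), Impact (8.54), Grb10 (5.18), Plagl1 (2.45), Igf2r (1.64), Rian (0.894), Peg10 (0.452) and Dlk1 (0.108). The neighbours that did not overlap at P0 were Nnat and Mest, Mest and Meg3, and Grb10 and Plagl1. Dlk1 was last at E16.5 and P0 but at rank 6 of 10 at E12.5.

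Between E13.5 and E16.5, 3 members fell in control-MADM green cells and none rose. Over all genes tested 15.8% were called in this comparison, 7.32% as lower, at an adjusted p under 0.05 in edgeR's quasi-likelihood test. Dlk1 was at 69.1 and 2.02 CPM in the 2 libraries of E13.5 and at 0.584, 0.275 and 0 CPM in the 3 of E16.5. Both earlier libraries were higher than all later ones, but they lay far apart from each other. The log2 difference was -6.73 ± 1.36 (SE, adjusted p 6.70e-04). Grb10 fell from 302 and 315 CPM to 54.9 to 81.7 (-2.26 ± 0.44, adjusted p 4.25e-04), and Nnat from 3687 and 5485 to 2158 to 2439 CPM (-1.0 ± 0.20, adjusted p 6.20e-04). Without control-MADM E13.5 replicate 1, which leaves 1 library at that age, the calls for Dlk1 (-2.61, adjusted p 0.396) and Nnat (-0.69, adjusted p 0.0820) were lost, whereas the Dlk1 difference was -7.69 without E13.5 replicate 3 and -7.93 without E16.5 replicate 1. The Grb10 call was lost when all green libraries, also those under the depth limits, were fitted (-1.58, adjusted p 0.111). From E16.5 to P0 only Plagl1 was called among the members, falling by 1.23 ± 0.33 on the log2 scale (adjusted p 0.00828), where 14.1% of all genes were called and 5.77% as lower. It stood at 32.4 to 54.7 CPM at E16.5 and 14 to 22.0 at P0, and the call was lost without control-MADM E16.5 replicate 2 (-1.06, adjusted p 0.0677) and with all green libraries (-1.16, adjusted p 0.348).

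**Figure D1:**
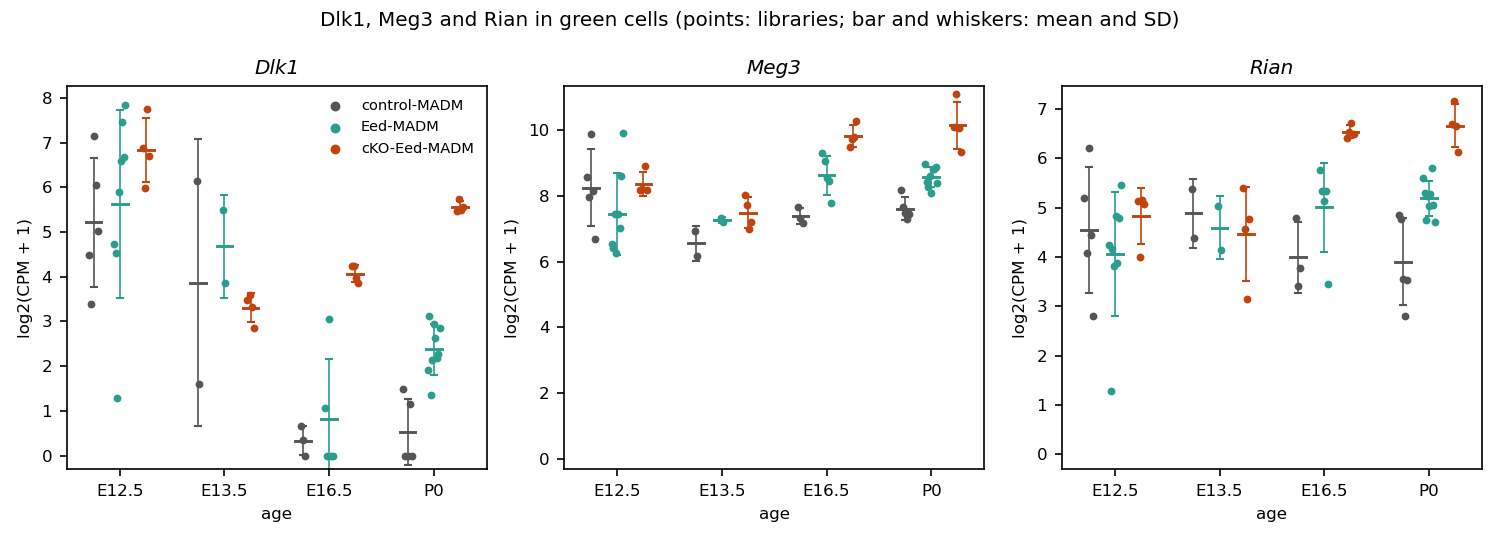
Levels of Dlk1, Meg3 and Rian in green cells by age and paradigm, as log2(CPM + 1). Each point is 1 library, and bars and whiskers are the mean ± SD of the log values. At E16.5 and P0 the cKO-Eed-MADM libraries sit above all control-MADM libraries for each gene, and at E12.5 the groups overlap.

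In the tissue-wide paradigm, where the labelled cells and the rest of the cortical lineage all lack Eed, 5 of the 10 members rose at E16.5 and 9 at P0, and none fell. The 5 include Dlk1, which was tested at E16.5 because of its 331 reads in these libraries, beside 5 in control-MADM and 49 in Eed-MADM. Over all genes tested, 8.58% were called at E16.5 (6.16% as higher), whereas P0 gave 24.2% (14.2% as higher). The median log2 difference over the members was 0.83 at E16.5 and 1.23 at P0, beside 0.00 and -0.01 over all genes. The 3 genes of the chromosome 12 domain had the largest differences at P0 and are described first. Fewer cells of a type and less RNA per cell cannot be told apart in such pooled samples.

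Dlk1 was close to absent from control cells at E16.5, with 5 reads in the 3 green libraries together, or 0.317 CPM with an exact 95% Poisson interval of 0.103 to 0.739 that covers counting error only. The 4 mutant Eed-/- libraries of cKO-Eed-MADM held 17.8, 17.8 and 14.6 CPM in replicates 1 to 3, and replicate 4, with 67 reads, lay just below. All 4 were above every control library, and the log2 difference was 5.58 ± 1.46 (adjusted p 0.0199). At P0 Dlk1 stood at 1.82, 0, 0, 1.24 and 0 CPM in the 5 control-MADM libraries and at 43.5, 52.6, 44.0 and 46.3 CPM in the 4 of cKO-Eed-MADM. No values overlapped, and the log2 difference of 6.23 ± 0.66 (adjusted p 2.20e-07) was the largest of any member. Without control-MADM replicate 1, which held the 1.82 CPM, it was 7.28. Leaving out any 1 of the 3 control-MADM libraries at E16.5 took the Dlk1 call there (adjusted p between 0.0591 and 0.0973), with log2 differences from 5.06 to 6.74, the highest without replicate 1.

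Meg3, the noncoding RNA that lies next to Dlk1 in the same domain, was already abundant in control cells and rose less in relative terms. At E16.5 it was at 199, 159 and 143 CPM in control-MADM and at 713, 842, 885 and 1243 CPM in cKO-Eed-MADM. The groups did not overlap, with a log2 difference of 2.48 ± 0.29 (adjusted p 2.20e-05). At P0 the 5 control libraries held 286, 203, 176, 156 and 172 CPM and the 4 mutant libraries 1086, 2163, 1062 and 638 CPM. Again every mutant library was above every control, by 2.67 ± 0.27 on the log2 scale (adjusted p 1.85e-07), although cKO-Eed-MADM replicate 2 was well above the other 3.

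Rian followed Meg3 at a lower level. It was at 26.6, 9.62 and 12.7 CPM in control-MADM and at 84.2, 92.0, 104 and 89.0 CPM in cKO-Eed-MADM at E16.5 (log2 difference 2.50 ± 0.42, adjusted p 5.80e-04). At P0 the control libraries had 27.8, 26.4, 10.8, 5.97 and 10.6 CPM and the mutant libraries 103, 143, 99.9 and 68.6 CPM (2.69 ± 0.34, adjusted p 2.66e-06). At both ages no mutant library reached down to a control library. The paternally expressed coding gene and both maternally expressed noncoding RNAs of the domain were therefore higher in the same libraries.

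Among the paternally expressed members on other chromosomes, Mest and Nnat rose at both ages in cKO-Eed-MADM. Mest was at 94.0 to 104 CPM in control-MADM and 168 to 203 in the mutant at E16.5 (0.96 ± 0.17, adjusted p 7.64e-04), and at 121 to 150 against 242 to 309 CPM at P0 (1.09 ± 0.13, adjusted p 1.85e-06). Nnat, the most abundant member, went from 2158 to 2439 CPM in control to 3448 to 4098 CPM at E16.5 (0.69 ± 0.10, adjusted p 1.71e-04). At P0 its groups overlapped, with 1822 to 2219 CPM against 2218 to 3679, and the difference was 0.53 ± 0.15 (adjusted p 0.0119). That call rested on cKO-Eed-MADM P0 replicate 2, without which it was 0.34 (adjusted p 0.0611), and was lost with only the 2 groups in the fit (adjusted p 0.0667).

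Peg10 and Impact were called at P0 but not at E16.5. Peg10 had 1.44 to 4.14 CPM in control-MADM and 9.29 to 14.6 in cKO-Eed-MADM at P0 (1.88 ± 0.38, adjusted p 6.63e-04). At E16.5 its difference was of the same size, 2.05 ± 1.09, at levels of 0.439 to 2.20 against 2.73 to 7.86 CPM, and did not pass the test (adjusted p 0.313). Impact was at 30.7 to 52.7 CPM in control and 58.7 to 102 in the mutant at P0 (0.87 ± 0.21, adjusted p 0.00338), without overlap, and at E16.5 its difference was 0.29 ± 0.23 (adjusted p 0.546).

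Plagl1, Grb10 and Igf2r had differences from control close to 0 or below it at E16.5 and above 0 at P0. Igf2r was at 8.86 to 19.8 CPM in control-MADM and 22.8 to 50.3 in cKO-Eed-MADM at P0 (1.37 ± 0.26, adjusted p 3.59e-04), against 26.1 to 30.7 and 23.4 to 38.9 CPM at E16.5 (0.20 ± 0.34, adjusted p 0.817). With all colours in 1 fit the P0 calls of Igf2r (adjusted p 0.0658), Impact (0.0626) and Plagl1 (0.444) were lost. Plagl1 was called at P0 (0.92 ± 0.31, adjusted p 0.0302) with overlapping groups of 14 to 22.0 and 15.9 to 52.5 CPM, and not at E16.5 (-0.35 ± 0.33, adjusted p 0.627). The Plagl1 call was lost without cKO-Eed-MADM replicate 1 or 3 or control-MADM replicate 6 (adjusted p between 0.0739 and 0.143).
Grb10 was the only member not called at P0, at 34.6 to 61.6 CPM in control and 33.5 to 136 in cKO-Eed-MADM (0.91 ± 0.39, adjusted p 0.0971). Without cKO-Eed-MADM replicate 2, which held 33.5 CPM, the difference was 1.16 (adjusted p 0.0274). At E16.5 Grb10 lay below control, at 29.7 to 46.3 against 54.9 to 81.7 CPM, with no overlap and without passing the test (-0.71 ± 0.25, adjusted p 0.0899). The change of the difference from E16.5 to P0 was 1.63 ± 0.50 for Grb10 (adjusted p 0.105), 1.28 ± 0.46 for Plagl1 (0.189) and 1.18 ± 0.42 for Igf2r (0.185). No member was called in this interaction test, in which 1.17% of all genes were, nor in that of Eed-MADM, with 0.0215%. In the former these were the 3 members with an unadjusted p under 0.05, and DESeq2 called 1 member. In the latter 4 members were under it, and DESeq2 called 0.

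**Figure D2:**
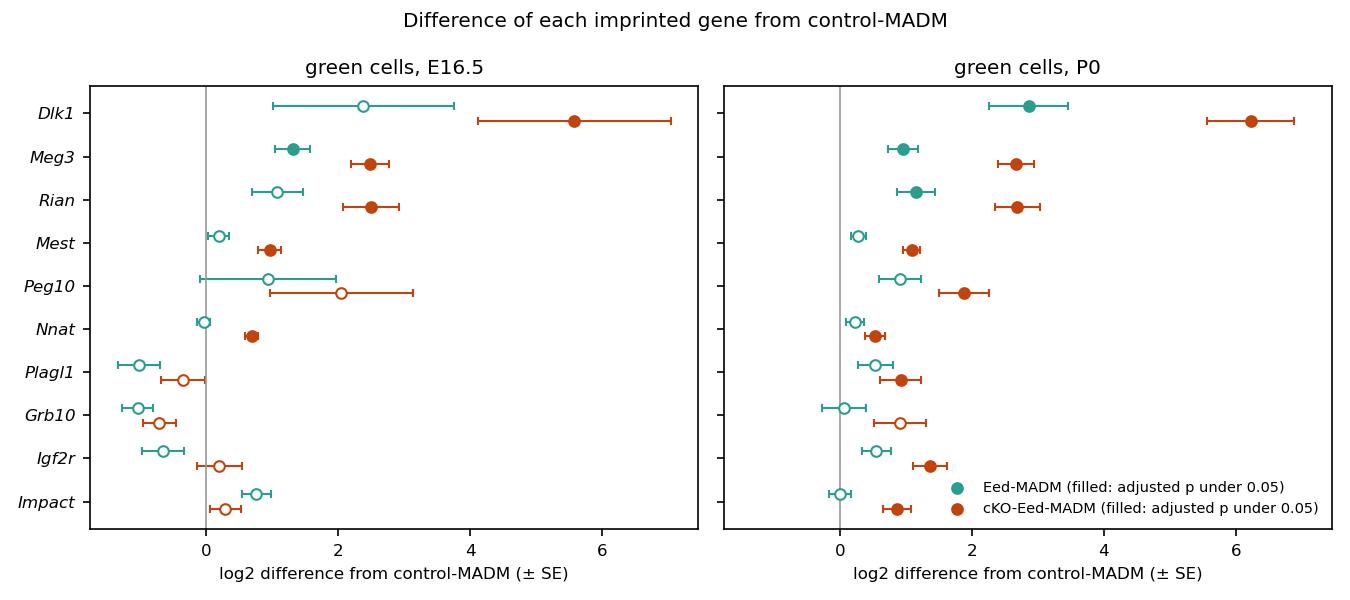
Log2 differences from control-MADM of the 10 members in green cells, for Eed-MADM and cKO-Eed-MADM in 1 panel each for E16.5 and P0. Points are fitted differences, whiskers are ± SE, and filled points have an adjusted p under 0.05. The filled points all lie above 0, with Dlk1 at 5.58 and 6.23 in cKO-Eed-MADM.

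Markers of cell types also moved with the tissue-wide paradigm in green cells. The 3 of the dorsal telencephalon summed to 642 to 776 CPM in control and 237 to 304 in cKO-Eed-MADM at E16.5. At P0 their sums were 370 to 549 against 139 to 182. Neuronal sums were 7808 to 9061 against 5467 to 7255 at E16.5, and radial glia 1277 to 2358 against 2056 to 4643 at P0. Those of intermediate progenitors were 617 to 781 against 246 to 412 at E16.5, and 342 to 516 against 471 to 844 at P0. At P0 the 6 markers of meninges and fibroblasts summed to 8.41 to 15.7 CPM in green control cells and 94.4 to 238 in cKO-Eed-MADM, and 5 of the 5 tested rose. The 6 microglial markers summed to 5.6 to 44.9 against 139 to 351 CPM, and 4 of 5 tested rose. No marker of either list was at 0 over either of these green groups. A marker was tested only with a mean count above 10 over all green libraries of the age. Markers low in control could pass this filter through the cKO-Eed-MADM libraries where they were high. The 6 neuronal markers summed to 3594 to 6652 against 1431 to 3181 CPM, with 3 lower. At E16.5 the 6 interneuron markers summed to 13 to 34.5 CPM in control and 250 to 500 in cKO-Eed-MADM, and 5 rose, whereas at P0 they summed to 361 to 869 against 157 to 243 CPM, and 4 fell. The 6 markers of the astrocyte and oligodendrocyte lineage went from 19.0 to 30.2 CPM in control to 82.1 to 382 at E16.5, with 4 higher, and the 7 of radial glia from 528 to 679 to 661 to 1246, with 2 higher. At that age the meningeal sums were 4.67 to 10.1 and 14 to 30.2 CPM, with Lum at 0 in control, and the microglial sums 2.85 to 4.12 and 14.1 to 58.7, with Csf1r at 0 in control. The part of these cells in the differences of the members was not tested.

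In the sparse paradigm single mutant Eed-/- cells lay in heterozygous tissue. Among the members, the reported edgeR fits called only the chromosome 12 genes there, as higher. At E16.5 only Meg3 was called, where 0.255% of all genes were (0.240% as higher). Meg3 stood at 632, 530, 369, 350 and 218 CPM in the 5 Eed-MADM libraries, all above the 3 control values (1.31 ± 0.27, adjusted p 0.0486). The call was lost without any of the 3 control-MADM libraries or without Eed-MADM replicate 2, 3 or 4 (adjusted p between 0.0711 and 0.246). Rian had 53.5, 39.3, 34.3, 39.6 and 9.96 CPM, which overlapped control (1.08 ± 0.39, adjusted p 0.306). Dlk1 was at 0 in 3 of the 5 Eed-MADM libraries, with 1.10 CPM in replicate 1 and 7.30 in replicate 3 (2.38 ± 1.37, adjusted p 0.572). Outside chromosome 12, Grb10 lay below control in every Eed-MADM library, at 26.1 to 42.6 against 54.9 to 81.7 CPM (-1.04 ± 0.23, adjusted p 0.0677), and passed the test without Eed-MADM replicate 5 (-1.17, adjusted p 0.0340). Impact lay above control in every Eed-MADM library, at 45.1 to 74.8 against 33.0 to 35.8 CPM (0.76 ± 0.22, adjusted p 0.178), while the cKO-Eed-MADM libraries overlapped control at 31.3 to 47.1 CPM. DESeq2 called Grb10 as lower (-1.03, adjusted p 0.00736) and Impact as higher (0.77, adjusted p 0.0474) in Eed-MADM. In edgeR with all colours in 1 fit Grb10 was called as well (-1.02, adjusted p 0.0399).

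At P0 Dlk1, Meg3 and Rian all rose in Eed-MADM green cells against green control cells. These were 3 of 10 members, where 1.75% of all genes were called and 1.52% as higher. Dlk1 was at 1.54 to 7.76 CPM with a median of 3.82 in the 9 libraries, above 0 in each, against 3 of 5 control libraries at 0 (2.86 ± 0.60, adjusted p 0.0126). The lowest mutant library fell under the highest control of 1.82 CPM. Meg3 ranged from 270 to 498 CPM with a median of 384, and its lowest library fell under the highest control of 286 (0.96 ± 0.23, adjusted p 0.0304). Rian ranged from 25.2 to 54.5 CPM with a median of 36.5 (1.16 ± 0.29, adjusted p 0.0368), with 2 control libraries inside that range. The Dlk1 call held without any 1 control library, and without replicate 1 the difference was 3.91. It was lost with only the 2 groups in the fit (adjusted p 0.0589), with the replicate number as a block (0.0569) and with the counts of the first strand (0.0680). With all colours in 1 fit none of the 3 genes was called (adjusted p 0.197 for Dlk1, 0.0847 for Meg3, 0.128 for Rian). Control-MADM cells of the other colours at P0 reached into the ranges of the mutant green cells. Red control libraries held 0.667 and 7.70 CPM of Dlk1, 234 and 306 of Meg3, and 33.6 and 37.2 of Rian. Yellow ones held 0.593 and 0 CPM of Dlk1, 323 and 409 of Meg3, and 41.7 and 60.4 of Rian. The latter value of each yellow pair is from replicate 2, the library with few genes. Without control-MADM replicate 2, 4, 5 or 6 the Meg3 call was lost (adjusted p between 0.0623 and 0.0925), and without replicate 4, 5 or 6 that of Rian (0.0901 to 0.111). Peg10 was above control in every library, at 4.30 to 7.06 against 1.44 to 4.14 CPM, and did not pass the test (0.91 ± 0.32, adjusted p 0.151). The remaining members had differences between -0.00 for Impact and 0.55 for Igf2r. In these cells the meningeal sums were 7.48 to 29.8 CPM and the microglial sums 1.27 to 135, and no marker of either list was called.

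Direct comparison of the paradigms, both with Eed-/- green cells, gave higher levels in cKO-Eed-MADM for 4 members at E16.5 and 7 at P0. Over all genes, 7.04% were called at E16.5 (4.45% as higher), whereas P0 gave 19.5% (11.2% as higher). The libraries of each mutant group are those already compared with control. At E16.5 the differences were 1.17 for Meg3, 1.42 for Rian, 0.77 for Mest and 0.72 for Nnat. The Nnat values of Eed-MADM, 2084 to 2487 CPM, did not reach those of cKO-Eed-MADM (adjusted p 2.09e-05). Dlk1 was higher by 3.21 ± 0.99 without overlap and missed the threshold (adjusted p 0.0573), and without Eed-MADM replicate 3 the difference was 5.80 (adjusted p 7.57e-04). At P0 the difference was 3.37 ± 0.44 for Dlk1 (adjusted p 7.60e-06), 1.71 ± 0.22 for Meg3 and 1.53 ± 0.28 for Rian, each without overlap. Mest (0.81), Peg10 (0.97), Igf2r (0.82) and Impact (0.87) were the others called. The Peg10 call was lost without any 1 of the cKO-Eed-MADM libraries, and that of Igf2r without replicate 3 (adjusted p 0.0623).

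**Figure D3:**
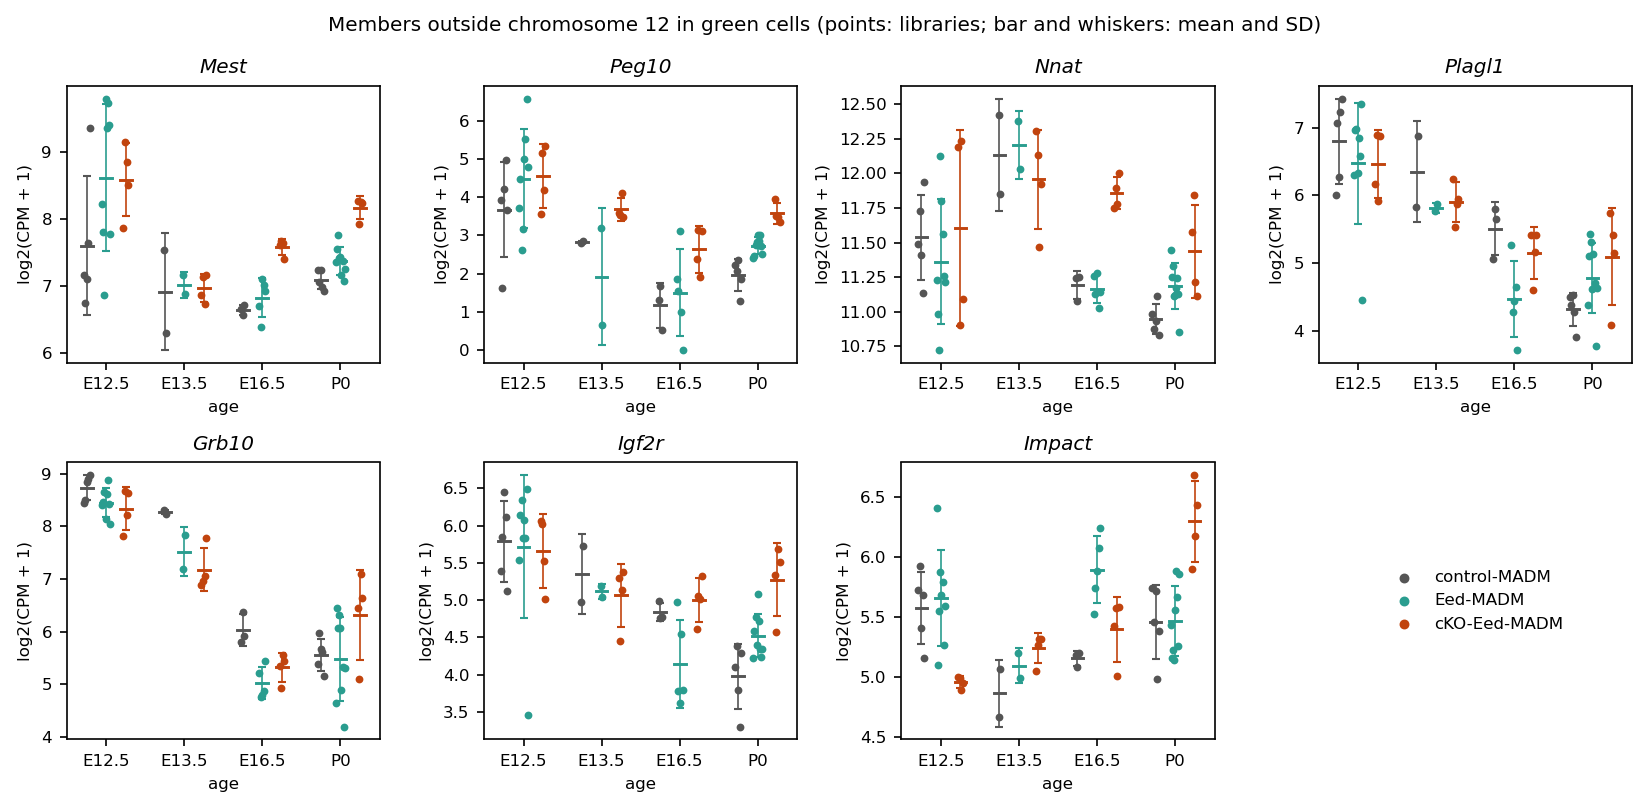
Levels of Mest, Peg10, Nnat, Plagl1, Grb10, Igf2r and Impact in green cells by age and paradigm, as log2(CPM + 1). Each point is 1 library, and bars and whiskers are the mean ± SD of the log values. Mest and Nnat are higher in cKO-Eed-MADM at E16.5, whereas Grb10 lies below control there, and at P0 Igf2r and Impact are higher as well.

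At the earlier ages no member was called in either mutant. Eed itself was not called by edgeR at these ages either. For cKO-Eed-MADM it was at 33.7 to 44.4 against 75.2 to 152 CPM at E12.5 (adjusted p 0.245). At E13.5 it was at 15.7 to 25.4 against 59.2 to 69.9 CPM (adjusted p 0.0933). In Eed-MADM it overlapped control at E12.5 (31.2 to 84.6 CPM), and at E13.5 it was at 28.4 and 52.7 CPM (adjusted p 0.886). At E12.5 0% of the 18100 genes tested were called in each comparison with control, by edgeR, where 685 genes had an unadjusted p under 0.05 for Eed-MADM, 1282 for cKO-Eed-MADM, and DESeq2 called 0 and 6 genes. Between the mutants the share was also 0%, where 1316 genes had an unadjusted p under 0.05, while DESeq2 called 1. Dlk1 was expressed at this age in all paradigms and varied widely, at 9.45 to 140 CPM in the 5 control libraries, 1.46 to 229 in the 8 of Eed-MADM and 62.7 to 213 in the 4 of cKO-Eed-MADM. Meg3 ranged from 101 to 947, 75.5 to 967 and 288 to 481 CPM. Impact was the only member with an unadjusted p under 0.05, lower in cKO-Eed-MADM (28.8 to 31.1 CPM) than in control (34.7 to 59.9), without overlap (-0.68 ± 0.30, adjusted p 0.641). Red blood cell markers also varied between E12.5 libraries, and summed to 5.56 to 16091 CPM in the control libraries and to 159 to 92226 in cKO-Eed-MADM, and their part in the members' spread was not tested.
At E13.5 0.0372% of 13448 genes were called between cKO-Eed-MADM and control, 0 of the members among them, and 3 members had an unadjusted p under 0.05. Grb10 was at 118 to 220 CPM against 302 and 315 (-1.08 ± 0.30, adjusted p 0.187), and DESeq2 called it. Meg3 was at 127 to 258 against 71.3 and 121 CPM (0.91 ± 0.35, adjusted p 0.373). Dlk1 was at 6.23 to 11 CPM, between the 2 control libraries (-2.0 ± 0.81, adjusted p 0.393). Between the mutants 0.0223% of genes were called, and 0% between Eed-MADM and control. In both, 0 members had an adjusted call, an unadjusted p under 0.05 or a DESeq2 call.

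Red cells gave a second set of libraries for the tissue-wide paradigm, since they too are Eed-/- in cKO-Eed-MADM but carry maternal copies of chromosome 7 in place of paternal ones. With 2 libraries per group, 3.93% of all genes were called at E16.5 (3.02% as higher) and 6.19% at P0 (1.91% as higher). At E16.5 Meg3 was at 915 and 1048 CPM against 241 and 186 (2.20 ± 0.35, adjusted p 8.03e-04), Rian at 115 and 125 against 19.7 and 21.3 (2.55 ± 0.49, adjusted p 0.00333) and Nnat at 3489 and 3616 against 2284 and 1880 (0.77 ± 0.13, adjusted p 0.00104). At P0 Meg3 was at 1540 and 1796 against 234 and 306 CPM (2.60 ± 0.41, adjusted p 5.89e-04) and Rian at 194 and 99.8 against 33.6 and 37.2 (2.02 ± 0.52, adjusted p 0.0194). Dlk1 was at 18.9 and 11.8 CPM against 2.08 and 0 at E16.5, and at 50.2 and 38.8 against 0.667 and 7.70 at P0. No Dlk1 values overlapped, and neither difference passed the test (adjusted p 0.281 and 0.0971). Grb10 in red cells at E16.5 again lay below control, at 28.3 and 40.8 against 72.8 and 66.3 CPM (-1.01 ± 0.31, adjusted p 0.0825). Without cKO-Eed-MADM red replicate 1, the library with few genes, 3.41% of genes were called and the mutant group was 1 library, assumed to vary like the other groups. Meg3 then kept its call (2.73 ± 0.46, adjusted p 0.00150), Mest gained one (0.91 ± 0.26, adjusted p 0.0473) and Rian lost it (1.5 ± 0.57, adjusted p 0.147). That library had 2.03 CPM of Plagl1 and 1.35 of Igf2r, against 38.8 and 33.3 in the other red library of the group.

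**Figure D4:**
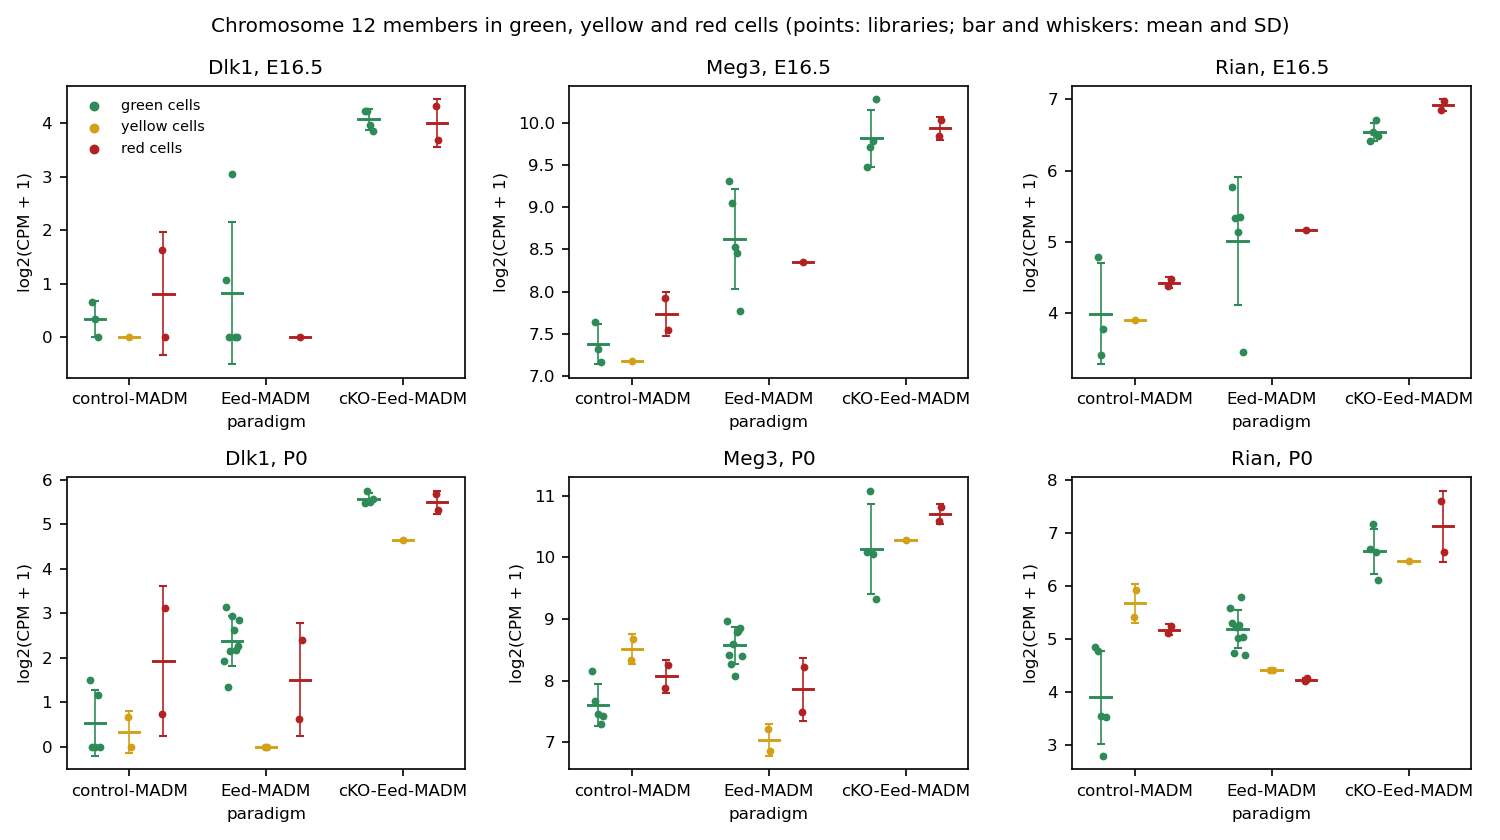
Levels of Dlk1, Meg3 and Rian at E16.5 and P0 by colour and paradigm, as log2(CPM + 1), with each point 1 library. In cKO-Eed-MADM the green and red libraries and the 1 yellow library, which is from P0, lie above control. No yellow cKO-Eed-MADM library was available at E16.5. In Eed-MADM at P0 the yellow libraries, Eed+/- by design, hold no Dlk1 reads.

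Colours were also compared within each paradigm, with the libraries taken as independent. Of 15 comparisons between colours within 1 paradigm and age, 14 called none of the members and 1 called Rian, where 5.17% of all genes were called. In the other 14 the background was 0% and 0.183% at E12.5, 0% to 0.149% at E13.5 (green against red cells gave 0.0897% in Eed-MADM libraries, 0.0598% in those of cKO-Eed-MADM), 0.105% and 0.0903% in the E16.5 libraries, and between 0% and 3.27% for P0 (0%, 0.141%, 0.0988%, 0.127%, 0.0141% and 3.27%), the last between green and red cKO-Eed-MADM cells. Without the 2 libraries that stand apart, this 3.27% (463 genes) came to 38 genes, and the 5.17% (732 genes) and the 0.141% (20 genes) against yellow control cells both came to 0. In the 14, 0 to 4 members had an unadjusted p under 0.05, and DESeq2 called 0 to 2. The Rian call was between green and yellow control cells at P0 (27.8, 26.4, 10.8, 5.97 and 10.6 against 41.7 and 60.4 CPM, -1.64 ± 0.40, adjusted p 0.0221). It was lost without yellow replicate 2, the library with few genes (-1.37, adjusted p 0.305), and without green replicate 4 (-1.53, adjusted p 0.0501). With yellow replicate 2 alone as the yellow group, the log2 differences of green cells were 10.89 for Grb10, 9.59 for Plagl1 and 6.94 for Peg10. That library held 0 CPM of each of these genes. The differences were -1.92 for Impact and -1.07 for Meg3. In Eed-MADM at P0 the 2 yellow libraries held 0 reads of Dlk1 in 10356098, which allows up to 0.290 CPM at a floor of 3 reads over both, whereas the 9 green libraries held 201 reads, or 4.56 CPM with an interval of 3.95 to 5.23, at least 15.7-fold higher than that floor for the reads of these libraries. Eed itself stood at 19.0 and 12.5 CPM in these yellow libraries, within the range of the green ones and below the 29.8 and 25.2 of red cells. Yellow cells of Eed-MADM against yellow control cells at P0 differed by -1.48 ± 0.40 for Meg3 (adjusted p 0.0494), the 1 member called where 2.03% of all genes were, and without control-MADM yellow replicate 2 that call was lost (-1.31, adjusted p 0.329, with 0.0212% of genes called). Meg3 was at 148 and 115 CPM in the yellow and 270 to 498 in the green Eed-MADM cells (1.56 ± 0.34, adjusted p 0.0575). Neither difference between the colours passed the threshold in the fit over all genes, where Dlk1 had an adjusted p of 0.0987. The 1 yellow cKO-Eed-MADM library of P0, which is Eed-/-, held 24.2 CPM of Dlk1, 1240 of Meg3 and 87.7 of Rian, above every control library of that age. The red Eed+/+ cells of the Eed-MADM animals held Dlk1 at 0.529 and 4.28 CPM.

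A list of 32 other imprinted genes outside chromosome 7 was read beside the members. They were tested under the same filter on low counts, which a gene could pass through the cKO-Eed-MADM libraries alone. In cKO-Eed-MADM against control 6 rose and 1 fell at E16.5 of 23 that could be tested, and 13 rose at P0 of 24, where 6.16% and 14.2% of all genes were called as higher. Of the paternally expressed genes among them 7 of 10 rose at P0, with a median log2 difference of 1.85, and of the maternally expressed ones 4 of 12, with a median of 0.10, and both tested genes known as imprinted in placenta only rose as well. Within the chromosome 12 domain the counts on Rtl1, a paternally expressed coding gene derived from a retrotransposon, rose at E16.5 (3.09 ± 0.74, adjusted p 0.0118). Those on Mirg, a maternally expressed host of microRNAs, rose as well (2.75 ± 0.60, adjusted p 0.00537). Rtl1 lies on the minus strand between Meg3 and Rian, and 8.4% of its exonic bases are shared with other genes. As the libraries do not keep strand, reads from plus-strand transcripts across its exons cannot be told from its own. At P0 Zdbf2 (3.06 ± 0.28), Rasgrf1, a guanine nucleotide exchange factor (3.72 ± 0.58), Nap1l5 (1.48 ± 0.25), Cobl, an actin nucleator (2.27 ± 0.43), and Sfmbt2, a Polycomb group protein (3.45 ± 0.72), were the 5 with the lowest adjusted p among those called. Airn, the noncoding RNA transcribed across the Igf2r promoter from the other strand, rose at E16.5 by 3.42 ± 0.96 (adjusted p 0.0317), when Igf2r had a difference of 0.20. Herc3, the one that fell, was lower by 1.75 ± 0.28 on the log2 scale (adjusted p 3.05e-04). Of the 24 tested in Eed-MADM green cells at P0, Zdbf2 (1.77 ± 0.24, adjusted p 1.32e-04) and Sfmbt2 (2.99 ± 0.66, adjusted p 0.0180) rose, where 1.52% of all genes were called as higher. At E16.5 0 of 23 rose, where 0.240% of all genes were called as higher.

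The members were last compared by how they varied among the 55 green libraries once the mean of each age and paradigm was taken off. For Rian the most alike of all genes with a mean of at least 5 CPM was Meg3 (Pearson r of log2 CPM 0.75, and 0.74 without the E12.5 libraries). For Meg3 it was Stmn4 (r 0.80, and 0.67 without E12.5), a stathmin of neurons, and for Grb10 the ubiquitin ligase gene Nedd4 (0.77 and 0.79). The closest genes to Nnat and Mest were the tubulins Tubb5 (0.80) and Tubb4b (0.74), which came to 0.53 and 0.30 without E12.5. Plagl1 was most like Zdhhc21 (0.77), Igf2r like Rasa2 (0.78), Peg10 like Ets2 (0.64, and 0.32 without E12.5), Impact like Ywhaz (0.66) and Dlk1 like Agpat1 (0.63). These are descriptions over libraries that share depth and composition, and the r of Dlk1 was 0.46 without E12.5.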

How the data were processed

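Green, yellow and red cells were sorted from pooled mouse cortices and sequenced as Smart-Seq2 libraries without molecular identifiers. Per the labels and methods, the authors aligned reads to GRCm38 (mm10) with STAR, discarded reads with several alignments, and deposited raw counts per gene, without normalization. No source used here names the annotation release, so symbols and positions were taken from GENCODE M21 by gene ID without version, which matched 53274 of 53379. The unstranded counts were used. Between 13.4% and 40.4% of uniquely aligned reads were not assigned to a single gene and stayed out of library sizes. No pair of libraries held identical counts.

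For each age, green libraries of the 3 paradigms were fitted together with edgeR 4.0.16 (R 4.3.3, quasi-likelihood test, TMM), after a filter on a mean count above 1 at E12.5 and above 10 later, and p-values were adjusted over all genes tested by the Benjamini-Hochberg method, two-sided. Contrasts between colours used all libraries of an age, and ages and their interaction used the green libraries of E13.5, E16.5 and P0 in 1 fit. A call is an adjusted p under 0.05. CPM used the TMM-scaled sizes of all used libraries, and log2(CPM + 1) was taken from it. Dlk1 reads summed over a group were given without this scaling. Depth limits low counts most, and intervals cover counting error only. DESeq2 1.42.0, other scalings, filters, thresholds, sets of libraries and leaving out each library in groups of up to 5 were the alternatives. Red or yellow cells in place of green were added after seeing the data. The fits were tested on simulated data.

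The members and the lists of other imprinted genes and markers were chosen with earlier results of these data known. Named genes are the 10 members, Eed, up to 5 called genes of the other imprinted lists with the lowest adjusted p per comparison, and per member the genes most alike, of which 3 were computed. Other genes named (Mirg, Rtl1 and Airn where outside that limit, and genes beside a count) were chosen after their values were seen. Motif and CpG counts came from RefSeq promoter windows.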

Additional observations from a re-analysis of the deposited data

Results flagged for a closer look

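Of 110 combinations of a member with a group of 4 to 10 libraries, 11 held a library whose gap to the nearest other exceeded Dixon's 95% critical value, where chance flags about 1 in 20. At E12.5, Eed-MADM green replicate 9 had 967 CPM of Meg3 against at most 389 in the other 7. The cKO-Eed-MADM green replicate 4 had 481 CPM of Meg3 against 288 to 296, and replicate 3 had 14.9 CPM of Rian, below the 32.5 to 34.8 of the others. The control-MADM green replicate 5 stood at 658 CPM of Mest against 106 to 198. Eed-MADM green replicate 8 had 95 CPM of Peg10 against at most 45.2. In yellow cells, Eed-MADM replicate 5 had 35.0 CPM of Igf2r, below 79.9 to 87.1, and control-MADM replicate 3 had 53.2 CPM of Impact, above 35.0 to 37.7. At E13.5, cKO-Eed-MADM green replicate 3 had 16.4 CPM of Peg10 against 10.1 to 11.1, and replicate 5 had 220 CPM of Grb10 against 118 to 133. At E16.5, Eed-MADM green replicate 3 had 7.30 CPM of Dlk1 against 0 to 1.10. At P0, cKO-Eed-MADM green replicate 2 had 242 CPM of Mest, below 300 to 309 in the other 3. In that same library Meg3 was highest of the group, at 2163 CPM, and Grb10 (33.5), Plagl1 (15.9) and Igf2r (22.8) lowest.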

How the results depend on the processing

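The counts of members called were within 1.5 times of those reported in 220 of 253 recomputations with other settings and in 172 of 192 that left out 1 library. A count of 0 in both was included here, and most of the 31 comparisons had 0 members called. These shares therefore say little about the calls that were made. For Eed-MADM against control-MADM in green cells, the 1 member called at E16.5 became 2 at an adjusted p under 0.1 and with all colors in 1 fit, 3 with DESeq2 (231 genes in place of 34) and without a filter on low counts, 4 with DESeq2 at 0.1, and 0 with the 2 groups alone, with the counts of the first strand and with the newer quasi-likelihood form. The 3 called at P0 became 1 without the filter, with the counts of the first strand and with the replicate block (101 genes in place of 248), and 0 with all colors in 1 fit. At E13.5 all green libraries gave 2 called. For cKO-Eed-MADM against control-MADM, DESeq2 at either threshold and no filter gave 1 at E13.5, red cells gave 3 in the E16.5 libraries, then 2 in those of P0, also without the library of few genes, and yellow cells gave 1 for Eed-MADM at P0 and 0 without that library. For colors, no filter gave 2 between green and yellow Eed-MADM cells at E12.5. At P0 DESeq2 gave 4 between green and yellow control cells, 1 between red and yellow control cells and 2 between green and yellow Eed-MADM cells. For the first of these, DESeq2 size factors gave 2, and all libraries and the replicate block gave 0. From E16.5 to P0 DESeq2 gave 2 and all green libraries 0. In the interactions DESeq2 gave 1 for cKO-Eed-MADM, and no filter 1 for each paradigm. Reversed were Nnat for Eed-MADM at E13.5 with all green libraries (-0.85), Plagl1 (-0.34) and Igf2r (-0.49) at P0 in red cells, and, in yellow cells at P0, Dlk1 (-3.74), Meg3 (-1.48) and Rian (-1.33), or -4.66, -1.31 and -1.05 without the library of few genes. The yellow Eed-MADM cells are Eed+/- by design. For the other changes the cause was not tested.

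Leaving out 1 library gave 0 to 1 members for cKO-Eed-MADM against control-MADM at E13.5. The range was 4 to 5 in the E16.5 libraries, then 8 to 9 among those of P0, and 0 to 2 for Eed-MADM at the former age, 1 to 3 at the latter. It gave 4 to 5 between the mutants at E16.5 and 5 to 7 at P0, 0 to 3 between green and red cKO-Eed-MADM cells at P0, 0 to 6 between green and yellow and 0 to 5 between red and yellow control cells at P0, 1 to 4 from E13.5 to E16.5, 0 to 2 from E16.5 to P0 and 0 to 1 in the cKO-Eed-MADM interaction. Over all genes, these fits called 723 to 1313 for cKO-Eed-MADM against control-MADM at E16.5 and 2690 to 3735 at P0. For Eed-MADM against control-MADM they called 2 to 112 and 138 to 275, and between the mutants 711 to 1088 and 1808 to 2776. The upper ends for colours at P0 came from fits in which a library with few genes was alone in its group. Such fits cannot tell a difference of the members from a shift of that whole library. Green libraries of different paradigms that share a replicate number were compared by their deviations from the group means. The median correlations were -0.05, -0.08, 0.03 and 0.05 from the youngest to the oldest age. Whether libraries of different colours came from the same pools was not checked. With the replicate block cKO-Eed-MADM against control-MADM called 7 members at P0. DESeq2 size factors kept the sign of every called member. Members under about 5 CPM, such as Dlk1 and Peg10 in control cells, rest on few reads.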
